A study of Mus musculus with 6 samples.

Results

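The Schlafen genes were followed in pro-B cells, an early stage of B cell formation, from mice labelled HDAC7 deficient and from wild-type mice. The family described here holds 7 genes, Slfn1, Slfn2, Slfn3, Slfn4, Slfn5, Slfn8 and Slfn9, of 17097 genes with a single symbol on the array, and they were measured by 9 of its 45037 probe sets that were not controls. Members were taken by symbol, and the probe set that stands for each gene was chosen by its mean over all 6 arrays, the brightest being kept. The family was taken up with an earlier result for Slfn4 in these data already known, so its values below are a description.

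Cells were sorted as B220+CD43+IgM- on a flow cytometer, with 3 HDAC7-deficient and 3 wild-type samples named as biological triplicates. HDAC7 is a class IIa histone deacetylase, a nuclear corepressor, and the deficient mice carried a conditional allele. The sources used here give neither the promoter that drives its deletion nor the age, sex or number of the mice behind a sample. The p-values therefore measure the spread between these samples, which may in part be technical. RNA was amplified before hybridisation to Affymetrix perfect-match arrays, and the submitters' deposited log2 value per probe set was used as it stands. The title asks whether HDAC7 holds genes of other lineages silent, and Schlafen genes, which are known mainly from T cells and myeloid cells, were read beside that question. Not all were silent in wild-type cells. On those arrays Slfn1 stood at the 79.6 to 85.2 percentile of all genes, Slfn8 at 82.1 to 88.1 and Slfn3 at 23.5 to 58.8.

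Schlafen proteins are known in mice as brakes on the growth of T cells and as genes that interferon switches on, and their name is German for to sleep. They fall by length into a short class (Slfn1, Slfn2), an intermediate class (Slfn3, Slfn4) and a long class with a helicase-like region (Slfn5, Slfn8, Slfn9). In the gene table the cluster lies on chromosome 11 in the order Slfn5, Slfn9, Slfn8, Slfn10-ps, Slfn2, Slfn1, Slfn4, Slfn3 and Slfn14, so the short and intermediate genes sit side by side.

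The promoters are shown first, with letters that the short and intermediate genes share and a motif found in the long genes. RefSeq windows of 250 bases before to 50 bases after the start (build GRCm38.p6) were found for all 7 genes. The longest run common to the windows of Slfn1, Slfn2, Slfn3 and Slfn4 was searched after these windows had been read. No such run was sought for the long class. The run was ACTTCCTGG, and that search fixed its presence in all the short and intermediate genes. Its first base lay at -74, -55, -42 and -73 from the starts of these genes, and it was found on either strand in 0.843% of 32851 windows, and in none of Slfn5, Slfn8 or Slfn9. Capitals mark this run below, and in Slfn4 also TGACTCA, a match to the AP-1 motif TGANTCA. The Slfn4 window is shown whole, chr11:83174936-83175235 on the plus strand, since this gene differed most between the groups. The stretches of Slfn1 (chr11:83116722-83116778), Slfn2 (chr11:83065033-83065089) and Slfn3 (chr11:83191264-83191320) are on the plus strand too.
Slfn4: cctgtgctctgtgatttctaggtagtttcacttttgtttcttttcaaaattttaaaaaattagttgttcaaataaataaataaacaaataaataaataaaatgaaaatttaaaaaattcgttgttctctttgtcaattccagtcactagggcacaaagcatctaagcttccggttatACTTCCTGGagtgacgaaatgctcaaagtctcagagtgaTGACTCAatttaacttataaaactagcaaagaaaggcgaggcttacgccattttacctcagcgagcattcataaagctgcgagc
Slfn1: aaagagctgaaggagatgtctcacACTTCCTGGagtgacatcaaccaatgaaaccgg
Slfn2: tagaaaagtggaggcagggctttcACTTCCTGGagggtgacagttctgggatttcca
Slfn3: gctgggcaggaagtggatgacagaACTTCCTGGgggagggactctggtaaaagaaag

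The long class held matches to the interferon-stimulated response element. Its letters GAAANNGAAA, read on both strands, were found in 3 of 7 member windows, those of Slfn5, Slfn8 and Slfn9, and in 3.44% of all windows. In Slfn8 and Slfn9 the match lies on the opposite strand and so reads as TTTCGTTTTC. Capitals mark the match in Slfn5 (chr11:82951923-82951980, plus strand), Slfn8 (chr11:83020825-83020882, minus strand) and Slfn9 (chr11:82991842-82991899, minus strand). Here it starts at -155 in Slfn5, -48 in Slfn8 and -45 in Slfn9. The Slfn8 and Slfn9 stretches, set side by side on the element with no gap, were equal at 42 of 58 bases.
Slfn5: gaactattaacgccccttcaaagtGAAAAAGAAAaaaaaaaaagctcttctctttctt
Slfn8: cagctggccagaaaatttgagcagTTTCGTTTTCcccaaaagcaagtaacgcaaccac
Slfn9: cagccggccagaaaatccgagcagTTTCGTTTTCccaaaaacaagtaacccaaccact

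Other motifs were rarer or absent among the 7 windows. TGANTCA was found in Slfn4 and in 7.81% of all windows, and the NF-kB motif GGGANNNNCC in Slfn9 and in 20.7% of all windows. The gamma-activated site TTCNNNGAA and the MEF2 motif CTANNNNTAG, of the factors that HDAC7 is known to bind, were in no member window, against 8.3% and 3.69% of all windows. The Slfn5 element lies in a run of A, where such letters can match by composition. A match describes letters and does not show that a factor binds.

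Before the results, 1 array has to be set apart. Wild-type replicate 3 correlated with the other arrays at 0.70 to 0.82 over probe sets, and its Actb signal at the 3' end exceeded that of the middle of the transcript by 1.69, against 0.16 to 0.26 on the other 5. The arrays also divided by Xist, the RNA of the inactive X chromosome, with 11.40 and 11.27 on HDAC7-deficient replicates 2 and 3 and 8.51 on wild-type replicate 3 (high), and 4.87 on HDAC7-deficient replicate 1, 5.38 and 5.17 on wild-type replicates 1 and 2 (low). Results are therefore also given without wild-type replicate 3 and on each side of this division, which the labels do not name. Within the high side that replicate is the only wild-type array. Hdac7 itself read 9.95, 9.54 and 9.27 on the HDAC7-deficient arrays and 9.06, 9.48 and 7.31 on the wild-type arrays, a change of 0.97 ± 0.59 (SE) with a limma adjusted p of 0.399, or 0.31 without wild-type replicate 3. Whether its probes lie in the deleted part is not known here, so it does not check the labels.

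All 7 Schlafen genes had a higher mean on the HDAC7-deficient arrays, with a median log2 change of 1.38, against -0.03 over all genes. Over all 6 arrays Slfn4, Slfn1, Slfn2 and Slfn3, the neighbours in the cluster, had the 4 largest changes. This order did not hold on either side of the Xist division. On the low side Slfn9 (0.54) exceeded Slfn2 (0.43), and on the high side Slfn5 (2.71) exceeded Slfn1 (2.32) and Slfn3 (2.09). In 5 of 7 genes, Slfn1, Slfn2, Slfn3, Slfn4 and Slfn8, all 3 HDAC7-deficient arrays lay above all 3 wild-type arrays, and in 0 below. Of all genes 48.0% had a higher mean on the HDAC7-deficient arrays and 9.45% lay wholly above. Bright genes leaned the same way: of the 5126 genes with a mean between those of the dimmest and the brightest member, 6.91 and 9.01, 82.4% were higher and 16.9% lay wholly above, with a median change of 0.46.

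No Schlafen gene passed the test: 0 of 7 members had a limma adjusted p under 0.05 over all genes, as had 0.0% of the 17097 genes, and 0 of 9 member probe sets, as had 0.0% of the 45037 probe sets. At an unadjusted p under 0.05 there were 3 of 7 members, Slfn1, Slfn3 and Slfn4, against 3.52% of genes that were higher at that level. Without wild-type replicate 3 all 7 kept a higher mean, the median change was 0.71, and the same 5 genes lay wholly above, against 11.8% of all genes and 18.7% of those in the members' range of means. In that fit 5 of 7 members, now with Slfn2 and Slfn8, had an unadjusted p under 0.05, against 5.19% of genes. The median of the 5126 genes of like brightness was then 0.12. Fits that weighted the arrays by estimated quality called all 7 members, but they also called 8452 or 10932 of all genes, and the second of these estimates did not converge.

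**Figure D1:**
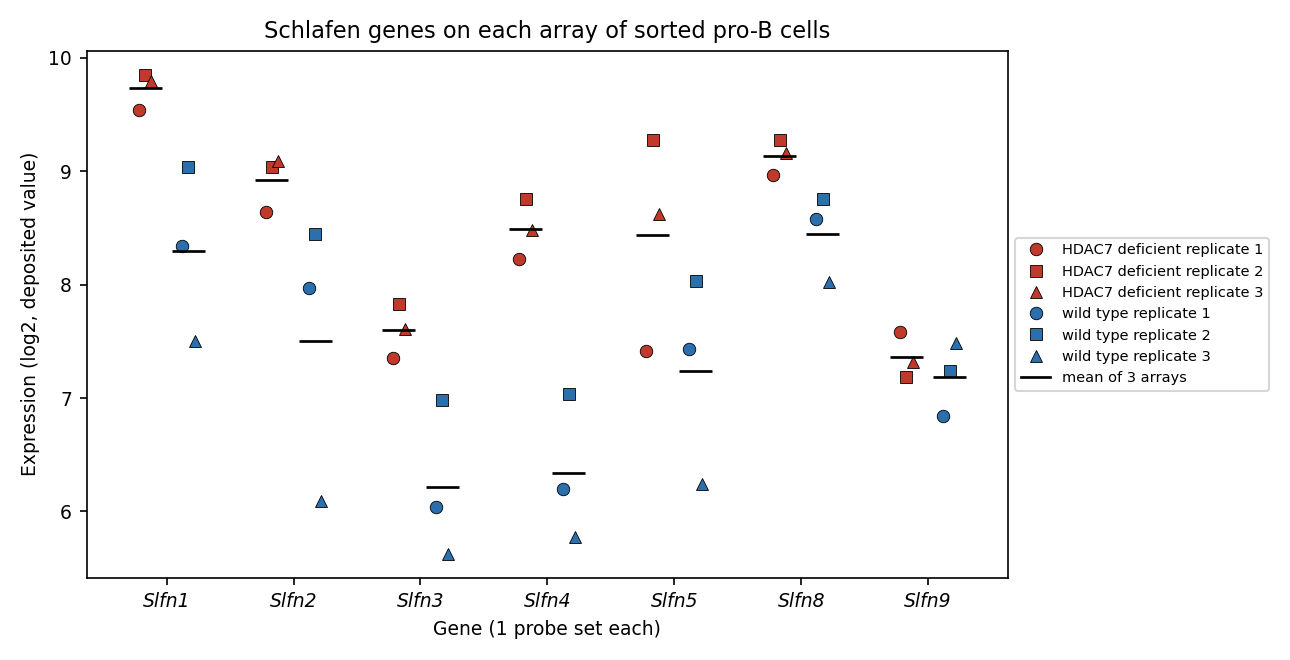
Deposited log2 expression of the 7 Schlafen genes on each array, 1 probe set per gene, with HDAC7-deficient arrays in red to the left of wild-type arrays in blue, marker shapes for replicate numbers and black lines for group means. The groups are apart in Slfn1, Slfn2, Slfn3, Slfn4 and Slfn8 and overlap in Slfn5 and Slfn9, and wild-type replicate 3 is the lowest array in 6 of the 7 genes.

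Slfn4, of the intermediate class, is known in mice from macrophages and other myeloid cells, where it changes with their activation. Its probe set 1427102_PM_at read 8.22, 8.75 and 8.49 on the HDAC7-deficient arrays and 6.20, 7.03 and 5.78 on the wild-type arrays. The lowest HDAC7-deficient array stood 1.19 above the highest wild-type array, the widest such gap in the family. The means were 8.49 ± 0.27 and 6.34 ± 0.64 (SD, n = 3 each), a change of 2.15 ± 0.38 (SE) or 4.44-fold (limma adjusted p = 0.377). On wild-type replicates 1 and 2 the gene was little above the brightest nonspecific control probe set, which read 5.94 and 6.81. On its own arrays the gene stood at the 74.0, 81.8 and 80.7 percentile of all genes in HDAC7-deficient cells and at the 44.5, 59.4 and 27.5 percentile in wild-type cells.

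The change of Slfn4 did not hang on the array set apart. Without wild-type replicate 3 it was 1.87 ± 0.30, or 3.66-fold. On the low-Xist arrays, where HDAC7-deficient replicate 1 faces wild-type replicates 1 and 2, it was 1.61, and on the high-Xist arrays 2.84. Slfn4 was thus the one member with a difference above 1.5 on each side of the division. Counted from the largest rise down, with genes that fell placed last, it ranked 13 among all genes, or 20 without wild-type replicate 3.

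Slfn3, the other intermediate gene, is known in rodents from T cells and from the differentiating gut lining. Probe set 1450322_PM_s_at read 7.36, 7.83 and 7.61 on the HDAC7-deficient arrays and 6.04, 6.99 and 5.63 on the wild-type arrays, with no overlap. The change was 1.38 ± 0.38 (limma adjusted p = 0.377), or 1.09 ± 0.31 without wild-type replicate 3. In Affymetrix naming the letter s marks probes that match more than 1 transcript, so part of this signal may come from a related gene such as Slfn4, and the annotation's single name does not settle it.

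The second Slfn3 probe set did not show the difference. Probe set 1421644_PM_at read 5.06, 4.48 and 4.11 on the HDAC7-deficient arrays and 4.16, 4.82 and 3.93 on the wild-type arrays. The groups overlapped, with a change of 0.25 ± 0.31 (limma adjusted p over probe sets = 0.608). On each of the 6 arrays it lay below the brightest of the array's nonspecific control probe sets, a level that all 7 main probe sets exceeded on every array. The deposited values carry no detection calls, so this probe set neither shows nor denies a change of Slfn3.

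**Figure D2:**
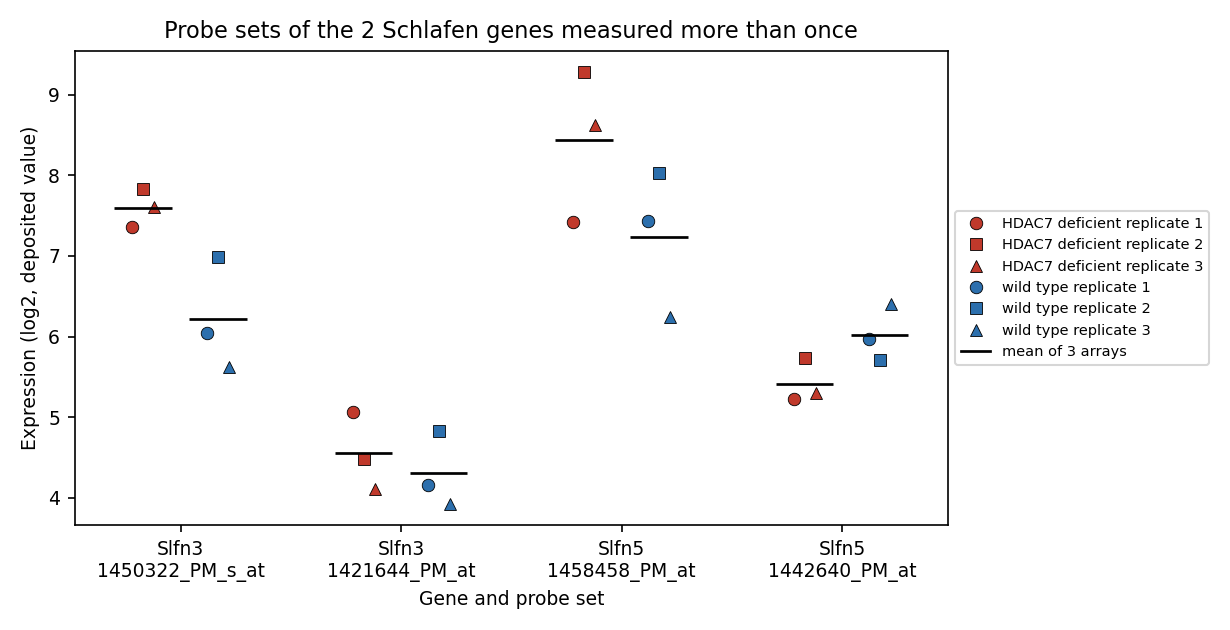
Deposited log2 expression of both probe sets of Slfn3 and of Slfn5 on each array, drawn as in the plot of all 7 genes, with HDAC7-deficient arrays on the left of each pair and black lines for group means. The brighter probe set of each gene has the higher HDAC7-deficient mean, while the dim Slfn3 probe set overlaps and the dim Slfn5 probe set has the lower HDAC7-deficient mean.

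Slfn1, the founding member of the family, stops the growth of T cells when forced on in mice. Probe set 1418612_PM_at read 9.54, 9.85 and 9.80 on the HDAC7-deficient arrays and 8.34, 9.04 and 7.50 on the wild-type arrays. The groups were 0.50 apart at their nearest arrays, and the HDAC7-deficient arrays lay close together, with an SD of 0.17 against 0.77. The change was 1.44 ± 0.43 (limma adjusted p = 0.377), or 1.04 ± 0.23 without wild-type replicate 3, with 0.85 on the low-Xist and 2.32 on the high-Xist arrays.

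Slfn2, the other short gene, keeps T cells and monocytes quiescent in mice, as the elektra mutation in this gene shows. Probe set 1450165_PM_at read 8.64, 9.03 and 9.09 on the HDAC7-deficient arrays and 7.97, 8.45 and 6.10 on the wild-type arrays. The groups did not overlap but were only 0.19 apart, and the lowest value by far was that of wild-type replicate 3. The change of 1.42 ± 0.61 (limma adjusted p = 0.377) came to 0.71 ± 0.24 without that array, where its limma adjusted p was 0.286. It was 0.43 on the low-Xist arrays and 2.96 on the high-Xist arrays, so the size of the Slfn2 difference rested on wild-type replicate 3 more than that of Slfn4.

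Among the long genes, Slfn8 showed a smaller difference. Probe set 1451655_PM_at read 8.97, 9.28 and 9.16 on the HDAC7-deficient arrays and 8.58, 8.75 and 8.02 on the wild-type arrays, apart by 0.21 at the nearest arrays. The change was 0.69 ± 0.32 (limma adjusted p = 0.377), or 0.47 ± 0.19 without wild-type replicate 3. On the low-Xist arrays it was 0.30 and on the high-Xist arrays 1.20. By rank within each array Slfn8 did not separate the groups: it stood at the 83.8, 87.6 and 87.7 percentile of all genes on the HDAC7-deficient arrays and at 83.5, 82.1 and 88.1 on the wild-type arrays, the last being wild-type replicate 3. With quantile normalization its change was 0.18, and 4 of 7 members in place of 5 lay wholly above. Of all 17097 genes 1339 lay wholly above with quantile normalization, in place of 1616.

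Slfn9, next to Slfn8 and with much of the same sequence around its element, showed no such separation. Probe set 1458803_PM_at read 7.58, 7.19 and 7.32 on the HDAC7-deficient arrays and 6.84, 7.24 and 7.48 on the wild-type arrays. The groups overlapped, and this was the one member in which wild-type replicate 3 was the highest wild-type array and HDAC7-deficient replicate 1 the highest HDAC7-deficient array. The change was 0.17 ± 0.28 (limma adjusted p = 0.669), or 0.32 ± 0.24 without wild-type replicate 3. It was 0.54 on the low-Xist arrays and -0.23 on the high-Xist arrays, so its direction was not the same on both sides.

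Slfn5, a nuclear member of the long class that interferon induces, varied most within the HDAC7-deficient group. Probe set 1458458_PM_at read 7.41, 9.28 and 8.62 there, with an SD of 0.94, and 7.43, 8.03 and 6.24 on the wild-type arrays, with an SD of 0.91. HDAC7-deficient replicate 1 lay below wild-type replicates 1 and 2, while replicates 2 and 3 lay above every wild-type array. The change was 1.20 ± 0.62 (limma adjusted p = 0.381), or 0.71 ± 0.49 without wild-type replicate 3. It was -0.32 on the low-Xist arrays and 2.71 on the high-Xist arrays.

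The dimmer Slfn5 probe set ran the other way. Probe set 1442640_PM_at read 5.22, 5.73 and 5.30 on the HDAC7-deficient arrays and 5.97, 5.71 and 6.40 on the wild-type arrays. The groups overlapped by 1 array on each side, with a change of -0.61 ± 0.26 (limma adjusted p over probe sets = 0.354), and it exceeded all nonspecific controls on 2 of the 6 arrays only. No direction for Slfn5 is therefore common to its probe sets and to both sides of the Xist division.

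**Figure D3:**
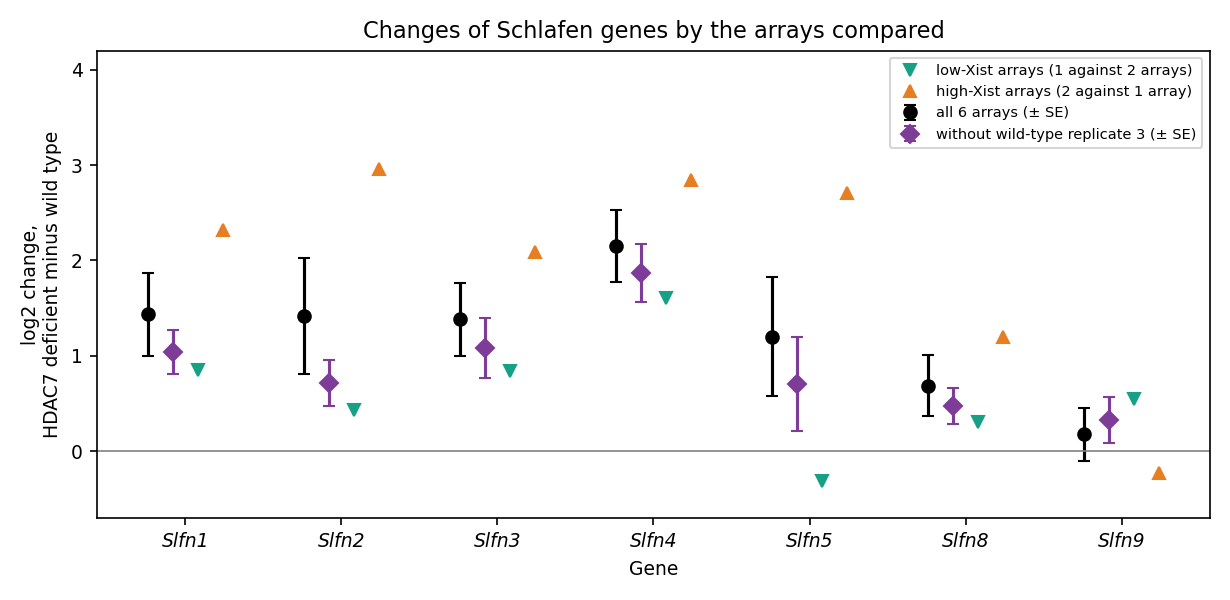
Log2 change of each Schlafen gene, HDAC7 deficient minus wild type, from all 6 arrays (black circles ± SE), without wild-type replicate 3 (purple diamonds ± SE), on the low-Xist arrays (green triangles pointing down, 1 HDAC7-deficient against 2 wild-type arrays) and on the high-Xist arrays (orange triangles pointing up, 2 against 1). Slfn4 lies above 1.5 in all 4, and the high-Xist value is the largest for every gene but Slfn9.

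The order of the arrays was shared by most members. Within wild type, replicate 2 was highest, replicate 1 next and replicate 3 lowest in 6 of 7 genes, all but Slfn9. Within HDAC7 deficient, replicate 1 was lowest in the same 6 genes, and replicate 2 was highest in 5. The median change of the 7 genes was 0.54 on the low-Xist arrays and 2.32 on the high-Xist arrays, against 0.22 and 0.99 for the 5126 genes of like brightness. On each side 6 of 7 members were higher, the exceptions being Slfn5 on the low side and Slfn9 on the high side.

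Of the remaining family, Slfn10-ps, annotated as a pseudogene between Slfn8 and Slfn2, read 6.56, 6.47 and 6.55 on the HDAC7-deficient arrays and 5.91, 6.35 and 5.87 on the wild-type arrays. These groups were 0.13 apart, with a change of 0.49 ± 0.21 (limma adjusted p = 0.377). Slfnl1, a Schlafen-like gene outside the cluster on chromosome 4, read 5.18, 5.15 and 5.23 on the HDAC7-deficient arrays and 5.23, 5.39 and 5.66 on the wild-type arrays. Here the HDAC7-deficient arrays lay lower without overlap, by less than 0.01 at the nearest pair, with a change of -0.24 ± 0.17 (limma adjusted p = 0.426). Slfnl1 lay below the brightest nonspecific control probe set on every array but wild-type replicate 3. Slfn14 was not analysed here.

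Genes beside the cluster differed in both directions. Of 10 protein-coding neighbours, 5 on each side, 8 were measured and 5 were higher, with a median change of 0.11, and none lay wholly above. Rad51d, a homologous recombination gene, differed by 0.77 ± 0.49 (limma adjusted p = 0.404), or 0.26 without wild-type replicate 3, with overlapping groups. Fndc8 and Rasl10b lay wholly below, as did 16.8% of all genes, with changes of -0.64 ± 0.17 and -0.54 ± 0.22 (limma adjusted p = 0.377 each). Without wild-type replicate 3 these were -0.57 and -0.30. Fndc8 and Rasl10b lay below the brightest nonspecific control probe set on every array but wild-type replicate 3. There they read 5.47 and 5.39 against 4.81, so their changes rest on values near background. Gas2l2 differed by -0.40 ± 0.25 (limma adjusted p = 0.404), or -0.22 without that array. No neighbour passed the test.

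Interferon is the best known inducer of Schlafen genes, and the genes of its pathway also had mostly higher means. It signals through a receptor pair to STAT and IRF factors, which bind elements of the kind marked in the Slfn5, Slfn8 and Slfn9 windows. Of 15 signalling genes 14 were measured and all 14 were higher, 0 with an adjusted p under 0.05, with a median change of 0.86, or 0.34 without wild-type replicate 3. Of the genes in the Schlafen range of means 82.4% were higher, with a median change of 0.46, or 0.12 without that array. The deubiquitinase gene Usp18, a brake on the receptor, read 7.50, 8.50 and 7.97 on the HDAC7-deficient arrays and 6.98, 7.61 and 5.51 on the wild-type arrays, and Irf7, the factor that amplifies interferon production, read 8.29, 9.80 and 9.24 against 8.11, 8.75 and 7.15. Both overlapped between groups. Irf2 and Irf5 differed by 0.75 ± 0.34 and 0.79 ± 0.37 (limma adjusted p = 0.377 each), or 0.78 and 0.46 without wild-type replicate 3.

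Of 25 interferon-stimulated genes 21 were measured and 20 were higher, again 0 past the test, with a median change of 0.71, or 0.46 without wild-type replicate 3. In 5 of the 21 the HDAC7-deficient arrays lay wholly above, against 9.45% of all genes and 16.9% of those in the Schlafen range of means. Ifit2, which binds viral RNA, read 6.61, 6.93 and 6.80 on the HDAC7-deficient arrays and 5.49, 6.30 and 5.10 on the wild-type arrays, a change of 1.16 ± 0.33, and Mx2, an antiviral GTPase gene, differed by 0.58 ± 0.23. The RNA sensor gene Ifih1 and Trim30a differed by 0.62 ± 0.29 and 0.79 ± 0.37 (limma adjusted p = 0.377 for all 4), and Trim30a by 0.47 without wild-type replicate 3. Mx2, and Irf2 of the signalling list, lay below the brightest nonspecific control probe set on every array but wild-type replicate 3. On the low-Xist arrays the medians of both lists were 0.10 and 0.05, and on the high-Xist arrays 2.09 and 1.06. The genes in the Schlafen range of means had 0.22 and 0.99. On the low side both lists thus stood below these genes and below the Schlafen median of 0.54. These differences were not tested.

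Over the 6 arrays, the genes most like each Schlafen gene included interferon genes. By Pearson correlation, given as a measure of likeness with no test, the gene nearest to Slfn3 among all genes was Ifit2 (r = 0.999) and the gene nearest to Slfn5 was Irf7 (r = 0.998). Slfn4 was nearest to Edrf1, Kmt2d, a histone methyltransferase gene, and Prpf38b, a splicing factor gene, at r = 0.997 to 0.998. Slfn1 was nearest to Btaf1, Slfn2 to Rnd3, Slfn8 to Tgfbi and Slfn9 to 9430091E24Rik, the last at 0.983. Without wild-type replicate 3 these correlations were 0.981 to 0.999. With so few arrays many genes share an order, and all of these but the partner of Slfn9 were low on wild-type replicate 3.

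Markers of other cell types were read beside the family, since in bulk samples more cells of a type and more RNA per cell cannot be told apart. Mean log2 levels of 8 measured macrophage markers were 7.41, 7.90 and 7.59 on the HDAC7-deficient arrays and 7.30, 7.32 and 6.94 on the wild-type arrays, without overlap, and 6 of 8 were higher. Their median change was 0.27, or 0.26 without wild-type replicate 3, against 0.46 and 0.12 for the 5126 genes in the Schlafen range of means. Itgam, the integrin of macrophages and neutrophils, read 6.95, 8.35 and 8.07 against 6.43, 6.54 and 5.87, and differed by 1.51 ± 0.42 (limma adjusted p = 0.377), or 1.31 without wild-type replicate 3. It had the smallest p of this list, followed by Fcgr3, Cd68 and C1qa. These differed by 0.70 ± 0.41, 1.31 ± 0.82 and 0.33 ± 0.26 (limma adjusted p = 0.393, 0.402 and 0.453). Without wild-type replicate 3 their changes were 0.275, 0.30 and 0.26. Of 8 neutrophil markers 6 were higher, with means of 10.53 to 11.16 on HDAC7-deficient and 9.65 to 10.65 on wild-type arrays. All 6 measured of 8 plasmacytoid dendritic cell markers, among them Irf8 of the interferon list, were higher, with means of 9.72 to 10.41 on HDAC7-deficient and 7.37 to 9.75 on wild-type arrays. Without wild-type replicate 3 the median change of neutrophil markers was 0.29 in place of 0.70, that of plasmacytoid markers 0.36 in place of 1.41, and that of T cell markers 0.30 in place of 0.55.

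T cell markers (6 of 7 higher) had means of 7.69 to 8.22 on HDAC7-deficient and 6.75 to 7.92 on wild-type arrays, and natural killer markers (4 of 6 higher) had 8.48 to 8.86 and 7.21 to 8.85, with 2 of 6 higher and a median change of -0.14 in place of 0.60 without wild-type replicate 3. The 9 measured pro-B markers, among them Pax5, Blnk, Cd79b and Dntt, had 9.40 to 10.34 and 8.44 to 10.05, with 7 of 9 higher, or 2 of 9 without wild-type replicate 3. Pro-B markers were thus present on all arrays as labelled, but genes of neutrophils and plasmacytoid cells were bright there too. HDAC7-deficient replicate 1, the lowest of its group for 6 Schlafen genes, was also the lowest of its group for macrophage, neutrophil, plasmacytoid and T cell markers and the highest for pro-B markers. Within wild type, pro-B markers ran in the same order as those 6 genes, with 10.05 on replicate 2, 9.81 on replicate 1 and 8.44 on replicate 3. Macrophage, plasmacytoid, T cell and natural killer markers ran in that order too, and neutrophil markers did not. The part of other cell types in the Schlafen values was not tested.

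**Figure D4:**
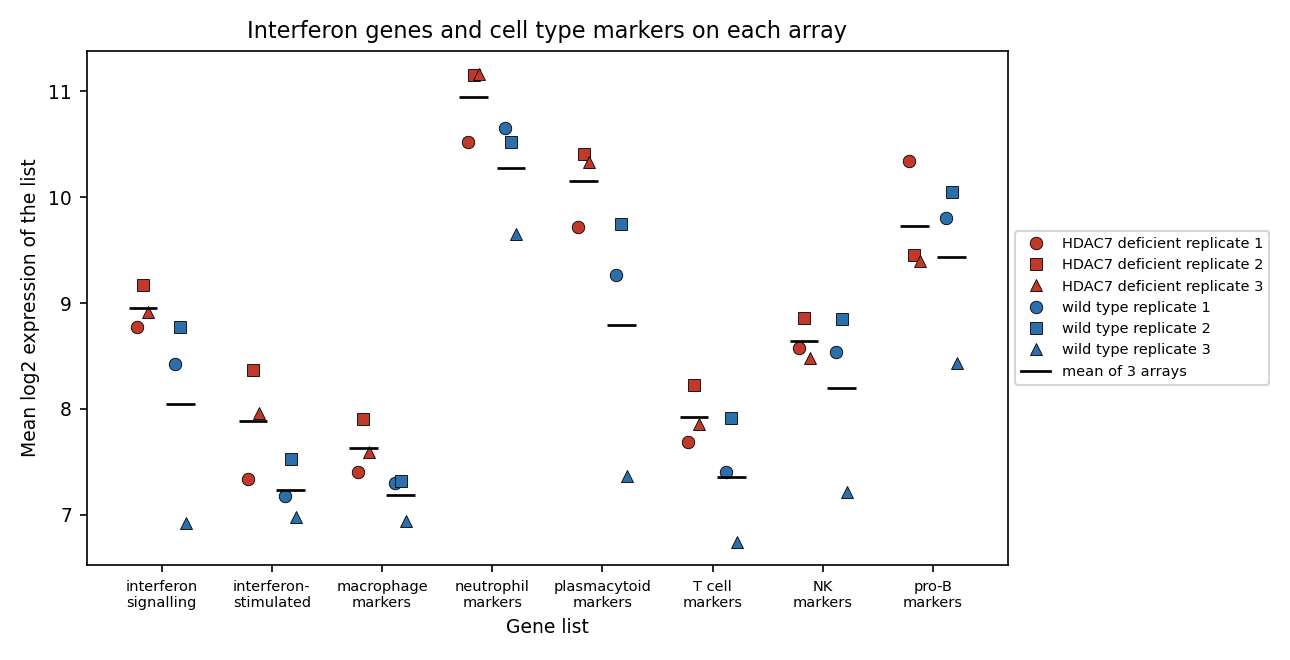
Mean log2 expression of 2 interferon gene lists and 6 cell type marker lists on each array, with HDAC7-deficient arrays in red to the left of wild-type arrays in blue, marker shapes for replicate numbers and black lines for group means. Wild-type replicate 3 is the lowest array in every list, and macrophage markers are the only marker list whose groups do not overlap.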

How the data were processed

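Each array came as the authors' log2 values, 1 for each probe set, a scale read from the values themselves. How they were normalized is not given in the sources used here. RNA was amplified and biotin-labelled, per the labels' protocols. The 104 control probe sets were set aside. A platform annotation gave a single symbol for 28898 probe sets, of which 28689 were updated by gene number from RefSeq (GRCm38.p6). The test was that of limma 3.58.1 (R 4.3.3), fitted to all 17097 genes (group means, intensity trend, two-sided, Benjamini-Hochberg, threshold 0.05). All adjusted p-values come from limma. With 3 arrays a group, exact permutation of 1 gene reaches 0.1 at best. Members, lists and motifs were chosen with earlier results of these data known. Genes named from the interferon, neighbour, macrophage and pro-B lists are the 4 with the smallest p. From the plasmacytoid list only Irf8 is named, as it is also in the interferon signalling list. The neutrophil, T cell and natural killer lists have no gene named. Likeness took the 3 genes nearest Slfn4 and 1 for each other member. The split by Xist was added once its values were known. The fit was tested on simulated data. Figures used matplotlib 3.10.9. The number of arrays limits the precision.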

Additional observations from a re-analysis of the deposited data

Results flagged for a closer look

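For 2 members every array ran one way on the low-Xist side and the opposite way on the high-Xist side, and this difference was not tested. The high-side change minus the low-side change was 3.02 for Slfn5, with 2.71 and -0.32, and -0.77 for Slfn9, with -0.23 and 0.54. In Slfn5 HDAC7-deficient replicate 1 lay below both low-Xist wild-type arrays. Wild-type replicate 3, which stood apart in quality, is the only wild-type array on the high side, so effects of that array and of genotype cannot be told apart there. The labels give no sex, so what the Xist division stands for is not known here.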

How the results depend on the processing

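Of 16 alternatives for each gene, Slfn1, Slfn2, Slfn3, Slfn4 and Slfn8 kept a positive change in all, with Slfn4 between 1.61 and 2.50. Slfn5 turned to -0.32 when the Xist block was fitted and wild-type replicate 3 left out, and Slfn9 to -0.23 with quantile normalization. Without wild-type replicate 3 all high-Xist arrays are HDAC7 deficient, so the block takes them up. That block fit then gives HDAC7-deficient replicate 1 against wild-type replicates 1 and 2, the low-Xist comparison given above. The lowest change of Slfn4, 1.61, comes from it too. Leaving out the 2 fits with array weights, no member passed, the lowest adjusted p being 0.0817. Slfn8 had a change of 0.18 with quantile normalization, and the mean over probe sets gave Slfn3 0.81 and Slfn5 0.30. Over all genes, 4 passed with the Xist block and wild-type replicate 3 left out, none a Schlafen gene, and 1 with the replicate block. The replicate block called 0 of 7 members. Deviations of same-numbered arrays from their group means correlated positively in each case (r = 0.10, 0.21 and 0.48). HDAC7-deficient replicate 1 correlated best with wild-type replicate 2 (r = 0.36), so the numbers were not taken as pairs. These values do not exclude pairing. Array weights called 10932 genes, 7 of 7 members and 9 of 9 probe sets, but that estimate did not converge and put nearly all weight on wild-type replicate 1 (40510, against 0.892 or less elsewhere). The gene-by-gene estimate, added afterwards, called 8452 genes, 7 of 7 members and 6 of 9 probe sets, with the lowest weight, 0.0716, on wild-type replicate 3. The cause was not tested. Probe sets near the nonspecific controls, the dimmer ones of Slfn3 and Slfn5, carry little signal over background.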
